A study of Glycine max with 6 samples.

Results

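The genes described here encode enzymes that take soybean (Glycine max) flavonoids towards flavones, flavonols and anthocyanins. They are 10 gene models, chosen by their identifiers, out of the 56044 in the deposited expression table: F3'H, F3'5'H, 2 flavanone 3-hydroxylases (F3H1 and F3H2), 2 type II flavone synthases (FNSII), 2 dihydroflavonol reductases (DFR1 and DFR2) and 2 anthocyanidin synthases (ANS). The choice used no expression value, although earlier results of these data were known when it was made. Transcripts were measured by RNA-seq in hairy roots, the transformed roots that emerge where a stem has been injected with Agrobacterium rhizogenes.

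All 6 libraries came from strain KF1 and from roots raised with the bacterial strain K599. In the GmPHD6-OE group the bacterium carried a construct for overexpression of GmPHD6, a protein with a PHD finger domain; in the RNAi group it carried a silencing construct against the same gene. The K599 group is the control and has wild type as its genotype label; whether its bacteria carried an empty vector is not stated in the sources used here. Each group had 2 libraries, and nothing in the labels says whether they came from separate plants. Hairy roots are induced organs in which each root can stem from its own transformation event, and the promoter of each construct is not given in the sources used here.

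Chalcone synthase and chalcone isomerase make flavanones such as naringenin, from which the branches described here start. F3H oxidises flavanones to dihydroflavonols, the shared precursors of flavonols and anthocyanins. FNSII instead draws flavanones off to flavones. F3'H and F3'5'H are cytochrome P450 enzymes that add hydroxyl groups to the B ring, and they decide which colour class of pigment can form. DFR and ANS then carry dihydroflavonols to coloured anthocyanidins. In soybean the T locus encodes F3'H and sets hair and hilum colour, and the W1 locus encodes F3'5'H and sets flower colour. Soybean roots are best known for the competing isoflavone branch, which uses the same flavanone stage. A flavonol synthase, which would make flavonols themselves, is not among the 10 genes.

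The authors deposited 1 value per gene and group, in FPKM (fragments by transcript length in kilobases and by sequencing depth), together with 2 confidence bounds and a quality flag. The 2 libraries of a group are therefore averaged in each value. The bounds, written in parentheses below, are read here as counting error and are not taken to cover the spread between roots. The authors do not state this, and it was checked only on genes with few fragments. All 10 genes have the flag OK in the 3 columns. Read as counting error, the bounds correspond to 14651386 fragments per library in GmPHD6-OE, 15340518 in RNAi and 15226738 in K599. In whole roots, fewer cells of a type and less RNA per cell cannot be told apart. The IDs are not paired with names in the files, so GmPHD6 itself, root markers and the remaining pathway genes were not analysed here. Gene names come with the choice of the genes. The RefSeq table for assembly Glycine_max_v4.0 matched 0 of the IDs, but it lists the symbols F3H, SF3'H1, W1, DFR1, DFR2, ANS2 and ANS3 on chromosomes 2, 6, 13, 14, 17, 1 and 11, the chromosomes of the genes so named here. It also lists FNSII-1 and FNSII-2 in that order along chromosome 12. This is the reverse of the order given with the choice of the genes, so the FNSII genes are called here by their IDs.

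Transcripts of most of these genes were scarce in the hairy roots of each group. Of the 10 genes, 7 stayed under 1 FPKM in each column, beside 40.4% of all gene models, and 2 of them were listed at 0 throughout, beside 18.0%. The genes with the highest levels were F3H2 and F3'H, at the entry to the branch and at the B ring. The genes of the last steps, DFR and ANS, were at 0 or close to it. As an example of the range, F3H2 exceeded 63.6% of gene models in GmPHD6-OE, 53.6% in RNAi and 62.8% in K599. The chromosome 1 ANS gene exceeded 27.9%, 34.2% and 27.5%, in the same order of groups, and gene models listed at 0 make up most of those below it.

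**Figure D1:**
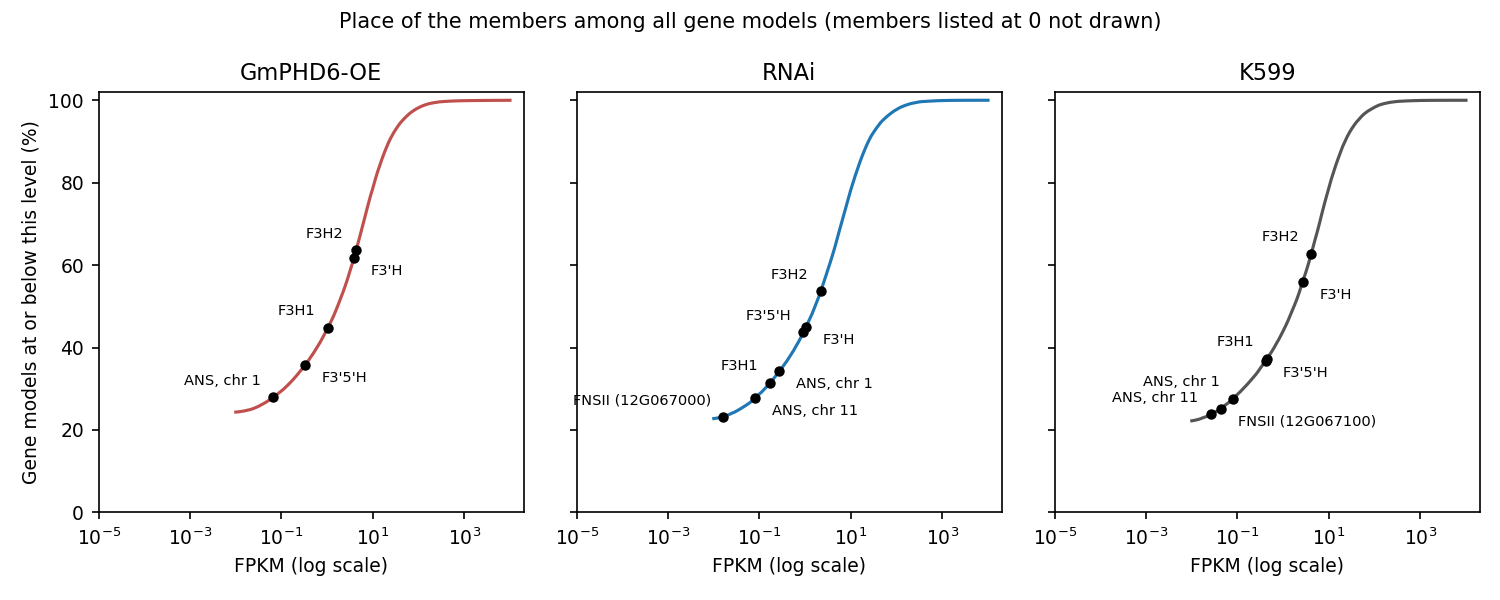
Cumulative share of gene models (vertical axis, percent) at or below each FPKM level (horizontal axis, log scale) in the GmPHD6-OE, RNAi and K599 columns, with members above 0 as black points. F3H2 lies highest in each column and the ANS and FNSII genes lie towards the foot of the curve, although in RNAi the chromosome 1 ANS gene lies above F3H1. Genes listed at 0 cannot be drawn on a log axis.

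F3H1 (Glyma.02G048400) and F3H2 (Glyma.02G048600) open the branch. They share 1 deposited locus on chromosome 2 (4440519 to 4451814, annotation Wm82.a2.v1) with Glyma.02G048500, which was listed at 0 in each column. F3H2 stood at 4.30 FPKM (3.48 to 5.12) in GmPHD6-OE, 2.20 (1.64 to 2.75) in RNAi and 4.12 (3.39 to 4.85) in K599. GmPHD6-OE and K599 were thus level, and the RNAi column lay below both with no overlap of bounds. F3H1 was the lower copy in each column, at 1.03 FPKM (0.628 to 1.42) in GmPHD6-OE, 0.173 (0 to 0.347) in RNAi and 0.444 (0.206 to 0.682) in K599. Its bounds in GmPHD6-OE and RNAi were apart, and those in K599 overlapped both. F3H2 held 80.7% of the summed F3H level in GmPHD6-OE, 92.7% in RNAi and 90.3% in K599.

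F3'H (Glyma.06G202300, chromosome 6, 18731104 to 18738025), the T locus enzyme that adds the 3' hydroxyl group, stood at 3.82 FPKM (3.11 to 4.54) in GmPHD6-OE, 1.04 (0.701 to 1.38) in RNAi and 2.65 (2.13 to 3.18) in K599. Its bounds in GmPHD6-OE overlapped those in K599 by a narrow margin, and those in RNAi lay below both. The RNAi level was 0.393 times that of K599. GmPHD6-OE was at 3.67 times the RNAi level and 1.44 times that of K599.

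F3'5'H (Glyma.13G072100, chromosome 13, 17312471 to 17317198), the W1 flower colour enzyme, had its highest value in the RNAi column. It stood at 0.330 FPKM (0.114 to 0.546) in GmPHD6-OE, 0.917 (0.573 to 1.26) in RNAi and 0.414 (0.196 to 0.632) in K599. The RNAi bounds lay above those of GmPHD6-OE and overlapped those of K599. Bounds were likewise higher in RNAi than in GmPHD6-OE for 22.0% of the genes tested below, among which F3'5'H was too low to be counted. In the RNAi column F3'5'H came close to F3'H, with overlapping bounds. In GmPHD6-OE and K599 the F3'H level was the higher, with bounds apart.

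**Figure D2:**
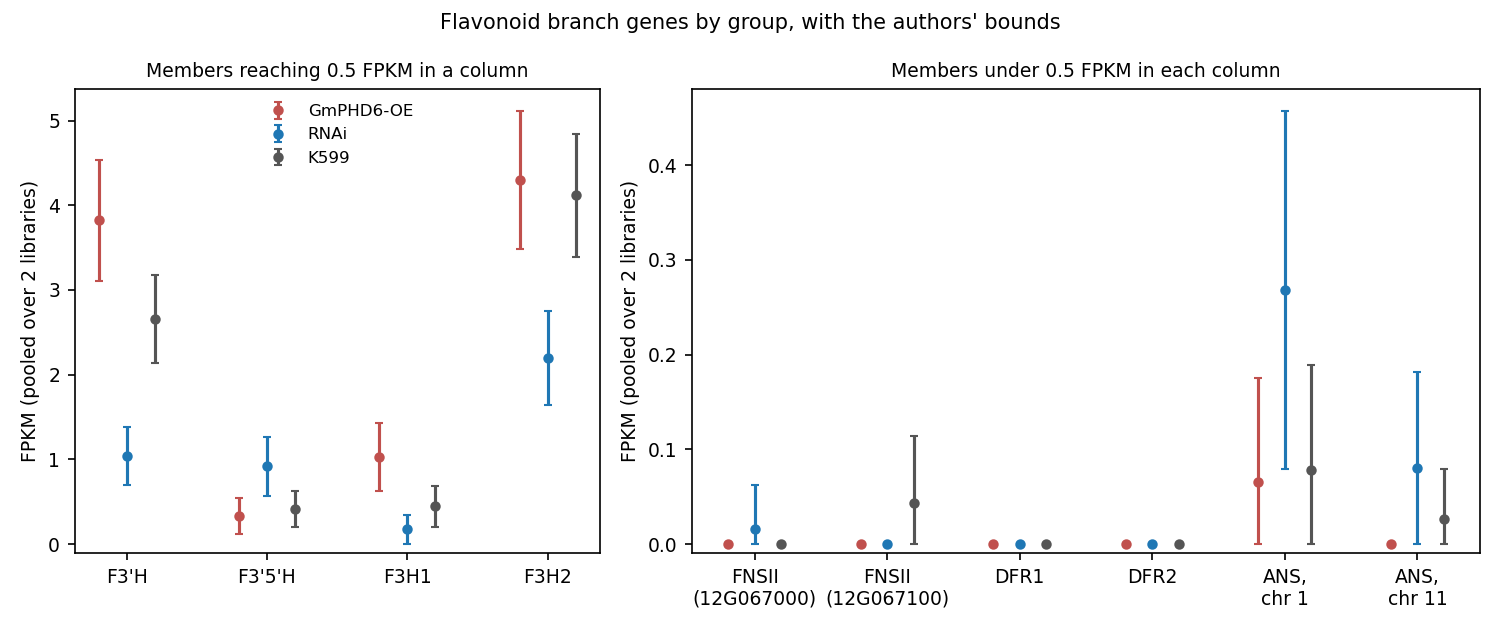
FPKM of each member (vertical axis; points are the authors' pooled values, bars their bounds) in GmPHD6-OE, RNAi and K599, with the 4 higher members on the left and the 6 lower on the right on another scale. RNAi is the lowest column for F3'H, F3H1 and F3H2 and the highest for F3'5'H and both ANS genes. Bounds of RNAi and K599 are apart only for F3'H and F3H2.

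The FNSII pair lies side by side on chromosome 12, 8054 bases apart, and was at or near 0. Glyma.12G067000 (4909072 to 4911905) was listed at 0 in GmPHD6-OE, at 0.0162 FPKM (0 to 0.0625) in RNAi and at 0 in K599. Glyma.12G067100 (4919959 to 4922998) was listed at 0 in GmPHD6-OE and RNAi and at 0.0432 FPKM (0 to 0.114) in K599. These values rest on 1 fragment and 3 fragments in all, so no order of groups can be read from them.

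DFR1 (Glyma.14G072700, chromosome 14, 6111577 to 6115871) and DFR2 (Glyma.17G252200, chromosome 17, 40652089 to 40657097) were listed at 0 in the 3 columns, the only members so listed. Neighbouring gene models were read as well. The one 915 bases before DFR2, Glyma.17G252100, stood at 21.0 FPKM in GmPHD6-OE, 22.2 in RNAi and 18.7 in K599. The one 1548 bases after DFR2, Glyma.17G252300, was listed at 0 in each column. Both neighbours of DFR1 in the table read at most 0.0307 FPKM in any column.

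The ANS genes were detected at trace level. The chromosome 1 gene (Glyma.01G214200, 54530534 to 54532622) stood at 0.0658 FPKM (0 to 0.175) in GmPHD6-OE, 0.268 (0.0791 to 0.457) in RNAi and 0.0784 (0 to 0.189) in K599. The RNAi value was the highest, with bounds that overlapped the other columns. The chromosome 11 gene (Glyma.11G027700, 1992155 to 1993544) was listed at 0 in GmPHD6-OE, at 0.0803 FPKM (0 to 0.182) in RNAi and at 0.0261 (0 to 0.0789) in K599. Again the highest value was that of RNAi, within bounds that reached 0.

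The 3 groups allow a gene to be compared under overexpression, under RNAi and in the control. With pooled columns no replicate test could be made on FPKM, so a rule of size was applied to the whole table. Genes entered with at least 1 FPKM in at least 1 column, and a difference is that of log2(FPKM + 1), which understates changes of low genes. A gene passed with a difference of at least 1, that is 2-fold on this scale, and bounds that did not overlap. F3H1, F3H2 and F3'H entered, 3 of the 10 members, and F3H1 did so only through its GmPHD6-OE value. The comparisons share columns, so their outcomes are not independent of each other.

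Between GmPHD6-OE and K599, 0 of the 3 tested members passed the rule, beside 2.22% of 32952 genes. The differences were 0.49 for F3H1, 0.40 for F3'H and 0.05 for F3H2, against a median of 0.02 over all tested genes. Bounds did not separate the columns for any of the 3, beside 22.0% of tested genes for which they did. The 3 members are too few to be set apart from that share.

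Between RNAi and K599, 0 of 3 passed, beside 11.2% of 32997 genes. F3'H read -0.84, F3H2 -0.68 and F3H1 -0.30, with a median of 0.05 over all tested genes. The bounds of F3'H and F3H2 lay below those of K599, as did those of 18.6% of tested genes. F3'H fell short of the rule because of the added 1: with log2(FPKM + 0.5) its difference was -1.03 and with log2(FPKM + 0.1) it was -1.27, and it passed in both cases. So did 4386 and 5066 of the 32997 genes, in that order.

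GmPHD6-OE against RNAi was the comparison in which a member passed. F3'H was higher in GmPHD6-OE, with a difference of 1.24, and was 1 of 3 tested members to pass, beside 11.9% of 32932 genes in either direction and 5.43% in that direction. F3H1 differed by 0.79 and F3H2 by 0.73. Each of the 3 had bounds higher in GmPHD6-OE than in RNAi, as had 19.5% of tested genes. F3H1 was past the threshold with log2(FPKM + 0.5), at 1.18, and with log2(FPKM + 0.1), at 2.05, beside 4576 and 5241 of the 32932 genes. Since F3H1 entered only through its GmPHD6-OE value, this direction is partly set by the filter and is given as a description. The median over all tested genes was -0.02.

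**Figure D3:**
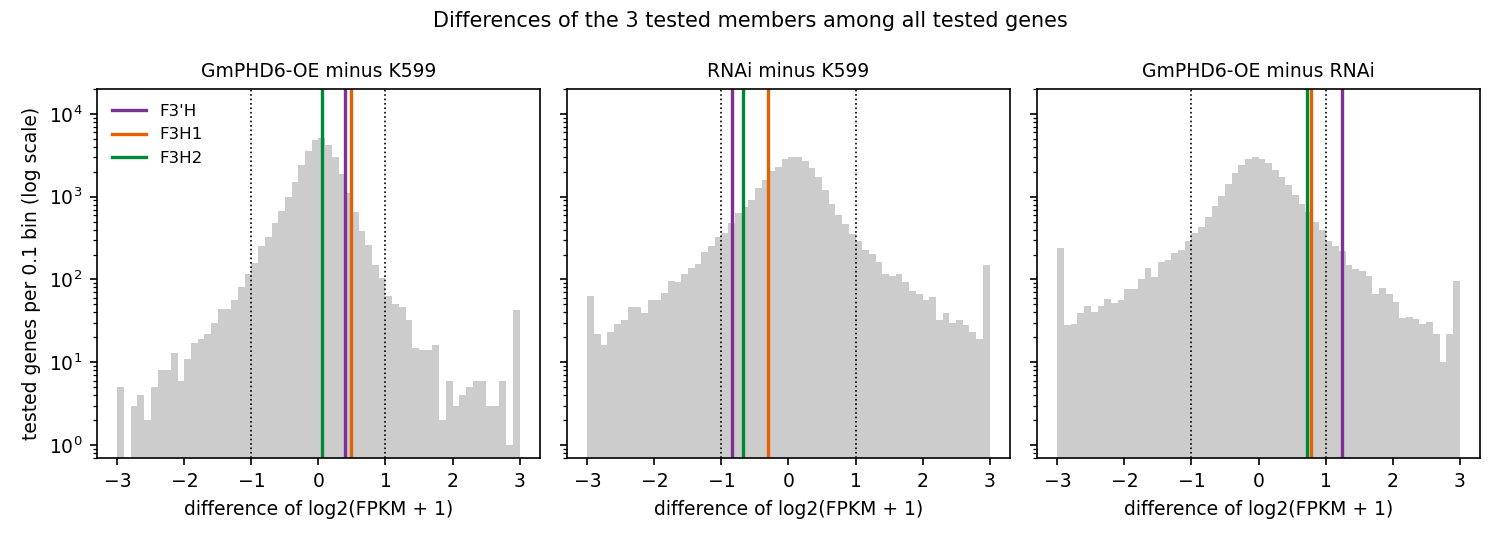
Number of tested genes (vertical axis, log scale) by difference of log2(FPKM + 1) (horizontal axis, 0.1 bins, the end bins hold all genes beyond 3 in size) for GmPHD6-OE minus K599, RNAi minus K599 and GmPHD6-OE minus RNAi. Coloured lines mark F3'H, F3H1 and F3H2 and dotted lines the threshold of 1; F3'H at 1.24 between the constructs is the member past it.

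F3'5'H and the ANS genes did not reach 1 FPKM and were not tested by the rule. As values, F3'5'H differed by -0.09 between GmPHD6-OE and K599, 0.44 between RNAi and K599 and -0.53 between GmPHD6-OE and RNAi. On the linear scale it stood in RNAi at 2.21 times the K599 level. The chromosome 1 ANS gene stood there at 3.42 times the K599 level.

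For genes with few fragments the bounds are narrow enough in their digits to give back whole fragments in each of the 2 libraries of a column. Library A is the deeper of each pair and library B the shallower, and neither can be tied to a replicate number. This worked for 10 of the 19 member values above 0. It gave F3'5'H 11 and 8 fragments in the GmPHD6-OE libraries, 28 and 29 in RNAi and 13 and 16 in K599, A before B. Scaled for depth these were 12.2 and 10.5 in GmPHD6-OE, 31.0 and 33.2 in RNAi and 12.7 and 16.2 in K599. Both RNAi libraries lay above the other 4, while the GmPHD6-OE libraries lay just below those of K599. The limit on chance matches was set after seeing the data so that F3'5'H could be read. Its RNAi split, at a mean of 28.4 fragments, is less certain than splits of fewer fragments. From 20 fragments upwards 61.5% of eligible RNAi values were placed, and so were 6.59% of shifted values.

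By limma across the 4000 genes recovered in each column with a mean of at least 5 scaled fragments, F3'5'H did not pass in any comparison. The log2 difference between RNAi and K599 was 1.11 with a standard error of 0.47, an unadjusted p of 0.0301 and a Benjamini-Hochberg adjusted p of 0.254, where 1.18% of genes passed. Between GmPHD6-OE and RNAi limma gave -1.42 with a standard error of 0.47 and an adjusted p of 0.110, where 2.42% passed. Between GmPHD6-OE and K599 it gave -0.32 with a standard error of 0.47 and an adjusted p of 0.890, where 0.0250% passed. Those shares moved with the settings. Leaving out a library moved them in both directions, down to 0 without a K599 library. A lone library then stands for its group, so the other counts are not given. With genes down to a mean of 1 scaled fragment limma passed 0 of 7143 between GmPHD6-OE and K599, 1 between RNAi and K599 and 0 between the constructs. Since separate plants are not stated, such p-values cover only how far these libraries vary, which may be technical variation. Beyond counting error, genes of 5 to 20 scaled fragments varied between the libraries of a group by 40.9% in GmPHD6-OE, 35.2% in RNAi and 24.1% in K599.

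The ANS signal in RNAi was uneven between libraries. The chromosome 1 gene had 2 and 1 fragments in GmPHD6-OE, 3 and 13 in RNAi and 1 and 3 in K599. Of its 16 RNAi fragments, 13 came from library B; after scaling for depth, RNAi library A held 3.32, against 3.04 in the higher K599 library. The chromosome 11 gene had 0 and 0 fragments in GmPHD6-OE, 1 and 4 in RNAi and 2 and 0 in K599, so RNAi library B again held the most. RNAi library A alone held 1.11 scaled fragments of the chromosome 11 gene, between the K599 libraries at 1.96 and 0. Without RNAi library B the ANS genes thus stood close to the K599 libraries. When the fit took in genes down to a mean of 1 scaled fragment, the limma adjusted p between RNAi and K599 was 0.476 for the chromosome 1 gene and 0.653 for the chromosome 11 gene.

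**Figure D4:**
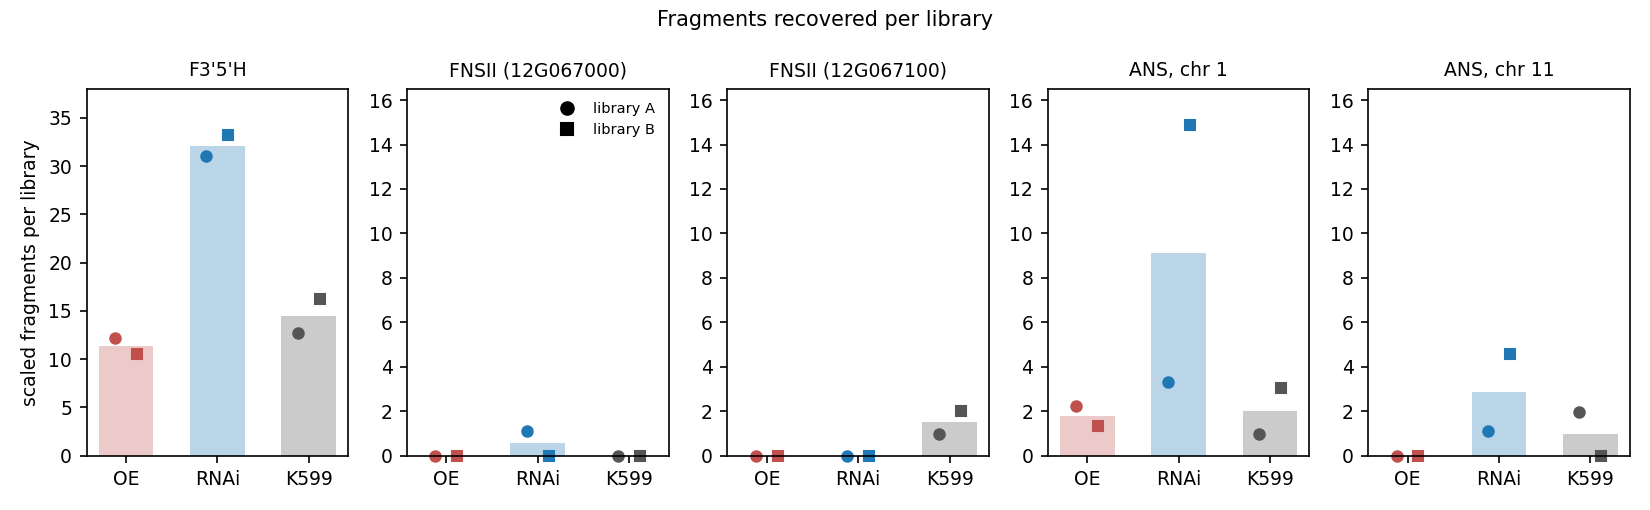
Scaled fragments per library (vertical axis, with circles for library A, squares for library B and bars for the mean of the 2) in GmPHD6-OE (OE), RNAi and K599. Shown are the 5 members whose values were recovered in each group, a value of 0 included, and that were above 0 in some group. Only F3'5'H and the chromosome 1 ANS gene had fragments in each group. The first panel has its own scale. Both RNAi libraries are high for F3'5'H, at 31.0 and 33.2, whereas library B alone is high for the ANS gene on chromosome 1, at 14.9 against 3.32.

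F3'H, F3H1 and F3H2 were not recovered in this way. F3'H and F3H2 did not meet the limits set on fragment number, rounding error and chance matches. Whether their bounds carry counting error alone was not tested. On that reading they held a mean of 114 and 110 fragments per library in GmPHD6-OE, 37.2 and 62.6 in RNAi and 103 and 128 in K599. F3H1 held few, 3.94 per library in RNAi and 13.9 in K599, but these did not fall on sums of whole fragments, and the gene shares its locus with F3H2. How fragments were split within that locus was not tested, so the level of each copy is less certain than their sum. That sum was 5.32 FPKM in GmPHD6-OE, 2.37 in RNAi and 4.56 in K599.

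Likeness of pattern was measured as the distance between pairs of log2(FPKM + 1) differences from K599, over 3 columns only. The distance usual between tested genes was not computed, so the distances below do not mark an unusual likeness. Among the members F3'H and F3H2 were nearest to each other, at 0.39. The nearest to F3'5'H was the chromosome 1 ANS gene, at 0.22. Both stayed under 1 FPKM, where the added 1 draws differences towards 0 and low genes near each other. Of the 16 RNAi fragments of this ANS gene, 13 came from library B. Among all tested genes those nearest to F3'H, the member with the largest difference from K599, were Glyma.08G038400 at a distance of 0.02 and Glyma.01G032000 at 0.03. Glyma.08G038400 (chromosome 8, 3012182 to 3013602) stood at 3.80 FPKM in GmPHD6-OE, 1.07 in RNAi and 2.69 in K599. Glyma.01G032000 (chromosome 1, 3363638 to 3366996) stood at 6.37, 2.06 and 4.58 FPKM in the same order.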

How the data were processed

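The authors deposited FPKM values with a lower and an upper bound per gene model and group, per the file headers, so the 2 libraries of a group were pooled before deposit. Per the submitters' processing notes, reads were handled with TopHat. Not given in the sources used here are its version, the tool behind the FPKM, the use of strand and the confidence level of the bounds. IDs carry the tag Wm82.a2.v1, and the column G6 was read as GmPHD6-OE. The members and lists were chosen with earlier results of these data known. All 10 members are described; the rule also named the nearest genes in pattern.

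Differences of log2(FPKM + 1) were taken over 33291 genes flagged OK throughout that reached 1 FPKM in a column; genes listed at 0 in a compared column got no fold. Fragments n were computed from bounds assumed to lie 2 SD of counting error from the value. They were split into whole fragments of 2 libraries where exactly 1 combination lay within 0.75 of the rounding error and chance would match under 0.1 of values, a limit set after seeing the data so that F3'5'H could be read. This placed 68.8% of eligible GmPHD6-OE values, 69.3% of RNAi and 70.7% of K599 values, against 1.46%, 1.45% and 1.28% of shifted values; from 20 fragments upwards the shifted share was 5.87%, 6.59% and 6.18%. Scaling used the step per library and the median FPKM per fragment. A value listed at 0 entered as 0 fragments. log2(scaled fragments + 1) of 6 libraries was modelled with limma 3.58.1 (R 4.3.3) with a mean-variance trend. Python 3.11.15 was used for the rest. The rule of size, the recovery and limma were tested on simulated data.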

Additional observations from a re-analysis of the deposited data

How the results depend on the processing

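Of 64 recomputed differences of members (log2(FPKM + 0.1), log2(FPKM + 0.5), quantile normalization and median scaling), 1 changed sign: the chromosome 1 ANS gene between GmPHD6-OE and K599 read 0.01 after quantile normalization against -0.02. A smaller pseudocount cannot change a sign, only a size, so signs were tested by the normalization and the scaling alone. Sizes did move with log2(FPKM + 0.1). F3H1 then read 2.05 between GmPHD6-OE and RNAi, against 0.79. The chromosome 1 ANS gene read 1.05 between RNAi and K599, against 0.23. Of 36 recomputed counts, 30 stayed within 1.5 times. Dropping the filter could not move a count, since genes under 1 FPKM throughout cannot differ by 1 in log2(FPKM + 1). The 30 also include member counts that stayed at 0. With either smaller pseudocount, under which low genes differ more by construction, 1 member (F3'H) passed between RNAi and K599. All tested genes that passed there numbered 4386 with log2(FPKM + 0.5) and 5066 with log2(FPKM + 0.1), against 3683 with log2(FPKM + 1). Between GmPHD6-OE and RNAi 2 members passed (F3'H and F3H1, which entered through GmPHD6-OE alone). All tested genes that passed there numbered 4576 and 5241, against 3916. Between GmPHD6-OE and K599, 1257 genes passed with log2(FPKM + 0.1), against 732. With a mean of at least 5 FPKM, which no member reached, 0 members passed between GmPHD6-OE and RNAi. For F3'5'H the limma direction was the same without each library in turn and with the other pseudocount. These settings and the other filters were tried after seeing the data. A filter changes which genes enter but leaves the fitted difference of a gene as it is, so it cannot test the direction. Leaving out a library likewise moves only the comparisons that use its group. Without a library, where the lone sample is assumed to vary like the other groups, the differences ran from -0.48 to -0.15 for GmPHD6-OE against K599, 0.94 to 1.27 for RNAi against K599 and -1.52 to -1.33 between constructs. No adjusted p fell under 0.05, the lowest being 0.0926 between constructs with genes of at least 10 scaled fragments. No paired analysis was possible because the columns pool the replicates and carry no replicate number. Depth limits the FNSII and ANS genes to a few fragments.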
